A study of Mus musculus with 6 samples.

Results

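Ighm, the gene of the constant region of the IgM heavy chain, was compared with 7 other genes of B cells in RNA from sorted mammary gland macrophages. The 8 genes were chosen by name from the 43432 genes of the deposited table, and each name matched 1 gene: Ighm, Ighd, Igkc, Cd79a, Cd79b, Ms4a1, Pax5 and Ebf1. They were chosen with results of these libraries known, so their levels and their change with age are given as a description, with no test. All samples came from female FVB/N mice with the MMTV-PyMT transgene, which places the middle T oncogene of polyomavirus under a mouse mammary tumour virus promoter that is active in mammary epithelium. Cells of digested mammary glands were sorted as live CD45+, MHC class II+ and CD14+ macrophages, from 3 samples at 8 weeks (early tumours) and 3 at 11 weeks (late tumours). Both ages carried the same strain, transgene and gate, and no tumour-free gland is among the samples analysed here. The labels number the samples of an age without stating that each came from its own mouse, so the spread between them may be technical.

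A B cell makes its heavy chain by joining a variable (V), a diversity (D) and a joining (J) segment and splicing the joined exon to the exons of the mu constant region, Ighm, or the delta constant region, Ighd. The heavy chain pairs with a light chain, mostly kappa in mice, whose constant region is Igkc, and reaches the surface with the signalling chains CD79A and CD79B. Ms4a1 encodes CD20, a surface protein of B cells, and EBF1 and PAX5 are the transcription factors that set and keep B cell identity. The heavy chain locus can also give germline transcripts, which carry the mu constant region with no V segment. B cells carry CD45 and MHC class II, as the sorted cells do, while CD14 is a marker of monocytes and macrophages.

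The libraries held 38784434 to 75004880 recovered reads, and 17385 to 19722 genes had at least 1 read. A level is given in normalized counts, the reads of a gene divided by the size factor of its library. Values are listed in the order of replicates 1, 2 and 3 of the age. A count of 0 allows up to 3 reads, which is 2.56 to 4.16 normalized counts depending on the library. Such floors and the intervals below cover counting error only. The macrophage identity of the sort was visible in 7 markers (Csf1r, Emr1, Cd68, Lyz2, Mertk, Fcgr1 and C1qa), all detected in every library. Their sum was 558824 to 768502 at 8 weeks and 575898 to 681257 at 11 weeks. Most of this sum was Lyz2, at 427826, 623180 and 411885 at 8 weeks and 441201, 540158 and 482393 at 11 weeks.

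The sequences at the heavy chain junction are shown because reads of Ighm are set below beside reads of V, D and J segments. Those reads were counted per gene. Reads across the junction were not analysed, so these counts do not tell rearranged from germline transcripts. In a rearranged message the end of a J segment is spliced to the first base of the Ighm constant exon. Capitals in the J segments mark the codon of the conserved tryptophan and the first bases of the glycine codon after it. All sequences are from the minus strand of chromosome 12 in GRCm38, as the GENCODE M21 annotation places them, at chr12:113429781-113429833 for Ighj1, chr12:113428514-113428567 for Ighj4 and chr12:113422611-113422730 for the first 120 bases of Ighm. The Cd79a line is the stretch of 250 bases before the RefSeq start of Cd79a on the plus strand, chr7:24897247-24897496 in GRCm38.p6, with capitals on an E box. The deposited table starts Cd79a earlier, at 24897381, so the end of this stretch lies inside the gene as counted.
Ighj1: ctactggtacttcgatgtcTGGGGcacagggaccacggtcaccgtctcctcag
Ighj4: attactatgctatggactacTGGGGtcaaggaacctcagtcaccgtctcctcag
Ighm: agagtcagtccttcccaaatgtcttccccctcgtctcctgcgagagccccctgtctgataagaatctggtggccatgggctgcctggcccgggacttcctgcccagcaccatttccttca
Cd79a promoter: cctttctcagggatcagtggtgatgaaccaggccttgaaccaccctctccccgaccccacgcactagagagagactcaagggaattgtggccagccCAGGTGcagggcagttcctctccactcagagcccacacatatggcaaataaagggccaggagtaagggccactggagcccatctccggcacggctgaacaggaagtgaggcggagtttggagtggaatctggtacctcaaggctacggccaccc

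Ighm was among the most abundant transcripts of the sorted cells. It was counted over chr12:113418558-113422730 on the minus strand, with 1886 exonic bases. Its level was 14133.3, 11228.5 and 12840.5 normalized counts in the 8-week libraries and 8975.1, 7127.2 and 9096.1 in the 11-week libraries. Every 11-week library lay below every 8-week library. These values rest on 7070 to 15851 reads per library. Ranked by normalized counts, Ighm stood at place 244, 342 and 292 among all genes at 8 weeks and at place 473, 645 and 451 at 11 weeks. It stood above 96.5% to 98.7% of the genes with a read in each library. It took 0.0132% to 0.0327% of the reads of a library. The mean was 12734 ± 1455 (SD, n = 3) at 8 weeks and 8399 ± 1103 (SD, n = 3) at 11 weeks. On the log2(normalized count + 1) scale the difference, 11 minus 8 weeks, was -0.60 ± 0.18 (SE), a level 1.52-fold lower at the later age. In bulk RNA, fewer cells of a type and less RNA per cell cannot be told apart.

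None of the 8 genes passed the threshold of adjusted p under 0.05 in the limma fit over all 21675 genes tested, which called 0.0507% of genes. Ighm was the 1 member with an unadjusted p under 0.05, a mark that 8.03% of all genes reached. edgeR, run on the recovered reads, called 0 of the 8 members, against 0.0646% of all genes. DESeq2 called 0 of the 5 members for which it gave an adjusted p, against 2.73% of such genes, and gave none for Cd79a, Pax5 and Ebf1. Ighm was also the 1 member whose ages did not overlap. Lower values with no overlap were seen in 5.12% of all genes tested. Nothing is read from these counts, since the members were chosen with results known. The same shares of all genes apply to the counts for the gene lists below, and nothing is read from those either. The median difference over the 8 members was -0.65, with 6 below 0 and 2 above, beside 0.05 over all genes tested. In the authors' deposited table the log2 fold change of Ighm was -0.567.

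**Figure D1:**
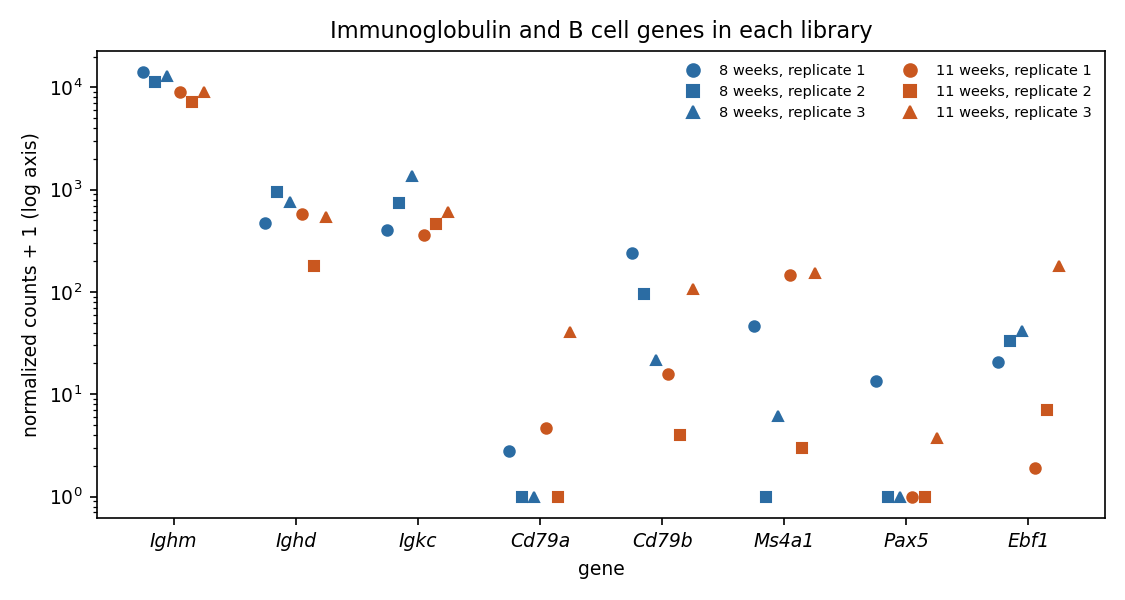
Normalized counts plus 1, on a log axis, of the 8 genes in each of the 6 libraries, 1 point a library; colour gives the age and shape the replicate. Ighm lies between 7127.2 and 14133.3 in every library, while Cd79a and Pax5 reach 0 in 3 and 4 libraries.

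The other constant regions of a naive B cell receptor were detected in every library at lower levels. Ighd, the delta constant region that lies downstream of Ighm (chr12:113406604-113416324, minus strand), measured 468.1, 954.5 and 748.2 normalized counts in the 8-week samples and 573.8, 178.4 and 542 at 11 weeks. The ages overlapped, and the lowest value was that of 11-week replicate 2, which also had the lowest Ighm. The difference of Ighd between the ages was -0.86 ± 0.49 (SE, log2), and -0.32 without 11-week replicate 2. Igkc, the kappa light chain constant region (chr6:70726435-70726757, plus strand), measured 401.2, 742.6 and 1350.3 at 8 weeks and 356.8, 462.7 and 603.6 at 11 weeks. Its highest value, in 8-week replicate 3, was not in the library with the highest Ighm. The difference of Igkc was -0.67 ± 0.45 (SE, log2), with overlapping ages. It was -0.24 without 8-week replicate 3 and -1.11 without 8-week replicate 1.

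**Figure D2:**
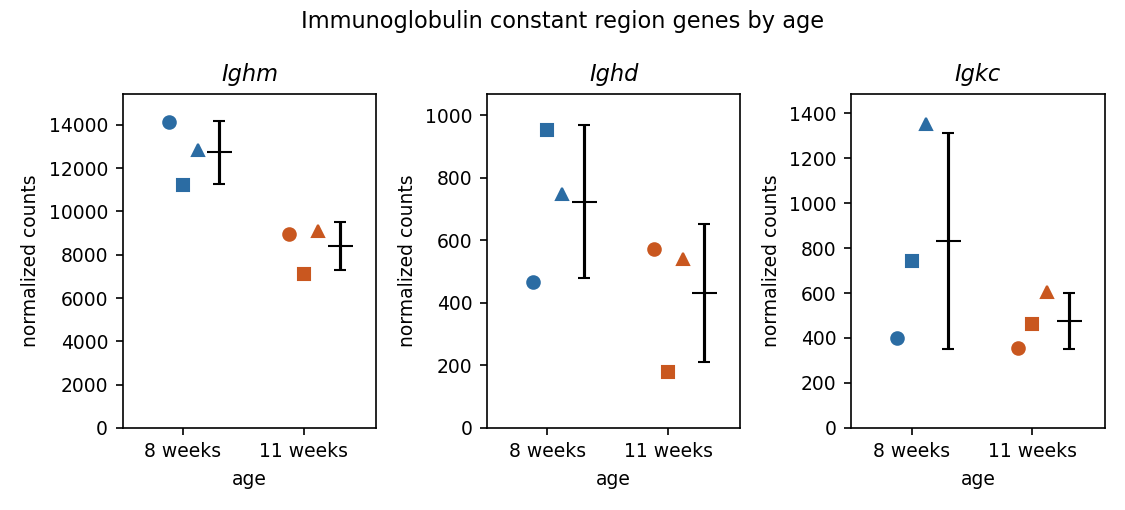
Normalized counts of Ighm, Ighd and Igkc by age on axes that start at 0; points are libraries, and the bar beside them is the mean with its SD (n = 3). The ages are apart for Ighm, with means of 12734 and 8399, and overlap for Ighd and Igkc.

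Levels of different genes can be set side by side only per length, so normalized counts were divided by the exonic length in kilobases. The mean over the 6 libraries was 5603 normalized counts per kilobase for Ighm, 2021 for Igkc and 304 for Ighd. It was 56.0 for Cd79b, 9.46 for Ms4a1, 5.19 for Cd79a, 4.72 for Ebf1 and 0.286 for Pax5. Across libraries the per-kilobase ranges of Ighm (3779 to 7494) and Igkc (1105 to 4181) overlapped, but Ighm was above Igkc in each library. Igkc and Ighd did not overlap, at 1105 or more against 502 or less. Igkc spans 323 bases in the deposited table, the length used here, and 532 in GENCODE M21, with which its mean would be 1227 and its range 671 to 2538. Ighd and Cd79b overlapped across libraries, though Ighd was above Cd79b within each. The ranges of the neighbouring pairs below them overlapped too, so neighbours in the order Cd79b, Ms4a1, Cd79a, Ebf1 and Pax5 are not separated by the spread between libraries.

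The ratio of Ighm to each constant region, per kilobase, differed among libraries. Ighm was 6.03, 2.59 and 1.63 times Igkc in the 8-week libraries and 4.31, 2.64 and 2.58 times in the 11-week libraries. With the longer Igkc these ratios would run from 2.68 to 9.94. Ighm was 30.4, 11.9 and 17.3 times Ighd at 8 weeks and 15.8, 40.2 and 16.9 times at 11 weeks. The Ighm to Ighd ratio was thus highest in 11-week replicate 2, where Ighd was lowest, and the ages overlapped for both ratios.

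The partner chains of the receptor were scarce. Cd79a (chr7:24897381-24902197, plus strand) measured 1.8, 0 and 0 normalized counts in the 8-week samples and 3.7, 0 and 39.9 at 11 weeks, from 2, 0, 0, 4, 0 and 44 reads. Only 11-week replicate 3 had more than 4 reads of it. The per-kilobase ratio of Ighm to Cd79a in that library was 176 (95% exact interval 131 to 243). In 11-week replicate 1 it was 1885 (736 to 6920), and in 8-week replicate 1, on 2 reads of Cd79a, it was 6123 (1695 to 50562). In the libraries with no Cd79a read Ighm was at least 2087-fold higher (8-week replicate 2), 3871-fold higher (8-week replicate 3) and 1821-fold higher (11-week replicate 2), taking 3 reads per library as the floor. The difference of Cd79a between the ages was 2.03 ± 1.42 (SE, log2), with overlap. It was 0.62 without 11-week replicate 3 and 3.30 without 11-week replicate 2.

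Cd79b (chr11:106311341-106314762, minus strand), the second signalling chain, measured 241.6, 95.6 and 20.5 at 8 weeks and 14.7, 3 and 105.1 at 11 weeks. Unlike Cd79a it was detected in every library, and its highest value was in 8-week replicate 1, which had 2 reads of Cd79a. The per-kilobase ratio of Ighm to Cd79b was 44.4, 89.1 and 475 at 8 weeks and 463, 1788 and 65.6 at 11 weeks. The 11-week ratios rest on 16, 3 and 116 reads of Cd79b. The difference of Cd79b between the ages was -2.08 ± 1.31 (SE, log2), with overlap. It was -0.96 without 11-week replicate 2 and -1.28 without 8-week replicate 1, and -3.33 without 11-week replicate 3.

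The surface marker and the transcription factors varied from library to library. Ms4a1 (chr19:11249675-11266241, minus strand) measured 45.5, 0 and 5.1 at 8 weeks and 146.2, 2 and 152.3 at 11 weeks, with a difference of 2.63 ± 1.75 (SE, log2). Leaving out 1 library moved this to between 1.27 (without 8-week replicate 2) and 4.51 (without 11-week replicate 2), with 1.71 and 1.68 without 11-week replicates 1 and 3 and 4.04 without 8-week replicate 1. An antisense gene, 4930526L06Rik, overlaps Ms4a1 and reached 198.5 normalized counts, and without a statement that counting used strand the reads of the pair cannot be told apart. Pax5 (chr4:44531145-44710487, minus strand) measured 12.5, 0 and 0 at 8 weeks and 0, 0 and 2.7 at 11 weeks, with a difference of -0.62 ± 1.24 (SE, log2). Pax5 was thus at 0 in 4 of the 6 libraries, and only 8-week replicate 1 exceeded the floor of 3 reads. Without that library Pax5 was below the filter for testing, and the difference of its means turned to 0.63. It was -0.31 without 11-week replicate 1 or 2 and -1.25 without any other single library. Ebf1 (chr11:44617317-45008091, plus strand), also expressed by some stromal cells, measured 19.6, 31.9 and 40.1 at 8 weeks and 0.9, 6 and 177.6 at 11 weeks. The 11-week libraries held both the lowest values of Ebf1 and the highest. Its difference was -1.18 ± 1.54 (SE, log2) in limma, but 0.996 in edgeR, 1.01 in DESeq2 and 0.22 without 11-week replicate 1. In limma it was -3.06 without 11-week replicate 3 and -0.72 without 11-week replicate 2. Pax5 and Ebf1 also overlap antisense genes, Gm12462 at up to 3.6 and Gm12158 at up to 10 normalized counts.

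Summed, Cd79a, Cd79b, Ms4a1, Pax5 and Ebf1 measured 321, 127.5 and 65.7 normalized counts in the 8-week samples and 165.5, 11 and 477.6 at 11 weeks. The library with the highest sum, 11-week replicate 3, had an Ighm level of 9096.1, and the library with the lowest, 11-week replicate 2, had 7127.2. Per kilobase, Ighm was 41.4, 85.0 and 353 times the sum of these 5 genes at 8 weeks and 130, 1245 and 33.5 times at 11 weeks. The ratio therefore ranged from 33.5 to 1245 among libraries of 1 age. As log2 of (Ighm + 1) over (sum + 1), without the length correction, the ratio was 6.50 ± 1.07 (SD, n = 3) at 8 weeks and 6.41 ± 2.55 (SD, n = 3) at 11 weeks. The difference of -0.09 ± 1.59 (SE) was smaller than the spread between libraries. Its sign rests on single libraries, at 0.99 without 11-week replicate 3 and -1.50 without 11-week replicate 2. It was also above 0 without 8-week replicate 3 (0.45) and without 11-week replicate 1 (0.23).

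**Figure D3:**
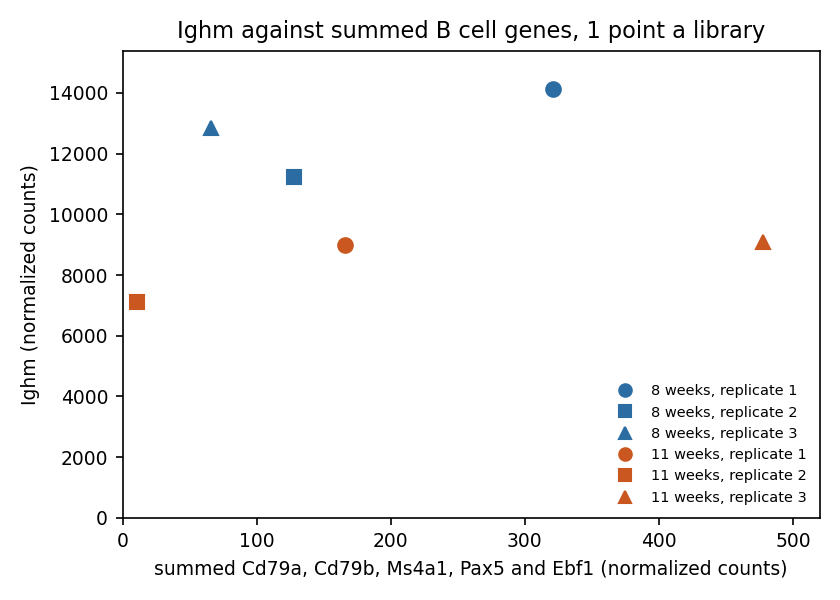
Ighm against the sum of Cd79a, Cd79b, Ms4a1, Pax5 and Ebf1, both in normalized counts on axes that start at 0, 1 point a library. The sum spans 11 to 477.6, while Ighm spans 7127.2 to 14133.3, and the library with the highest sum has an Ighm level of 9096.1.

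A list of 9 B cell markers (Cd22, Cr2, Fcer2a, Ighd and the 5 genes summed above) gave a total of 1144 to 1633.4 normalized counts in the 8-week samples and 817.5 to 1457.4 at 11 weeks. Cd22, an inhibitory receptor of B cells, measured 333.5, 551.4 and 642.3 at 8 weeks and 383.4, 620 and 271.9 at 11 weeks, and with Ighd it made up most of the total in every library. Of the 9 markers, 0, 5 and 3 were at 0 in the 8-week libraries and 2, 3 and 0 in the 11-week libraries. Fcer2a (CD23) reached 109.7 in 11-week replicate 3 and was at most 8.1 elsewhere. Fcer2a was thus highest in 11-week replicate 3, a library whose Ighm level lay below every 8-week library.

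Of 6 plasma cell markers, Mzb1, which helps plasma cells assemble antibody, was at 0 in all 6 libraries. The others, with Prdm1 the most abundant, summed to 2633.6 to 4358.3 normalized counts in the 8-week samples and 3147.4 to 3633 at 11 weeks. Igj, the joining chain of secreted IgM and IgA, measured 43.7, 76.2 and 49.5 at 8 weeks and 7.4, 43.3 and 30.8 at 11 weeks. Its 11-week values were all below those at 8 weeks, by 43.3 against 43.7 at the nearest, with a difference of -1.29 ± 1.08 (SE, log2). Eaf2, a gene of the longer plasma cell list, had the opposite order, at 5.3, 6.9 and 1.7 against 20.2, 18.1 and 29, a difference of 2.17 ± 1.34. Of the 21675 genes tested, 1109 were lower and 1475 higher at 11 weeks with no overlap.

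Reads of variable segments were few beside reads of the mu constant region. The table holds 174 heavy chain V segments, of which 39 had a read in any library. Their summed level was 22.3, 1.4 and 99.9 normalized counts in the 8-week samples and 41.5, 154.1 and 196.7 at 11 weeks. Ighm was 634, 8020 and 129 times this sum at 8 weeks and 216, 46.3 and 46.2 times at 11 weeks, in normalized counts with no length correction. The value of 8020 rests on 1 V read. The sum of V segments was highest in the 11-week libraries 2 and 3, where Ighm was 7127.2 and 9096.1, both below the 8-week values. This sum is of all heavy chains, not of IgM alone. Igha measured 1223.9 in 8-week replicate 3 and Ighg2b 720.8 in 11-week replicate 2. How the V reads divide among the constant regions was not analysed here. Of the 20 D segments, Ighd4-1 had 2 reads in 11-week replicate 2 and Ighd2-7 had 2 reads in 11-week replicate 3, and all others were at 0. V segments of a family are near-identical and the reference genome is of another strain than FVB/N, so the assignment of reads to single V segments is uncertain. How many V reads were lost to this was not analysed here. Whether D segments can collect reads by this counting was not analysed either, so nothing is read from their low counts.

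The leading V segments were carried by 1 or 2 libraries each. Ighv8-11 measured 104.8 in 11-week replicate 2 and 9.1 in 11-week replicate 3, and Ighv8-8 measured 40.3 and 7.3 in the same libraries. Ighv1-9 (41.7) and Ighv2-9-1 (38.1) were seen in 11-week replicate 3 alone. Ighv5-2 measured 23.9 in 8-week replicate 3 and 8.3 in 11-week replicate 1. No library shared its most counted heavy V segment with another.

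Ighj1 and Ighj4, the J segments printed above, were detected in every library, while Ighj2 and Ighj3 were each at 0 in 2 libraries. The 4 J segments summed to 400.3, 282.6 and 194.7 normalized counts in the 8-week samples and 364.9, 214.7 and 283.6 at 11 weeks. Ighj1, which lies 7.1 kb before the start of Ighm and nearest to the D segments, held 53.1% to 96.6% of these reads. It measured 327.2, 272.9 and 103.3 at 8 weeks and 317.2, 176.4 and 206.6 at 11 weeks. Ighj4, the J segment nearest to Ighm, measured 72.2, 9.7 and 84.6 at 8 weeks and 44.1, 14.1 and 57.1 at 11 weeks. The J sum exceeded the V sum in every library, from 400.3 against 22.3 in 8-week replicate 1 to 214.7 against 154.1 in 11-week replicate 2. Ighj1 is a feature of 53 bases that collects reads reaching in from outside it, so its level per length is not comparable with that of longer genes.

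**Figure D4:**
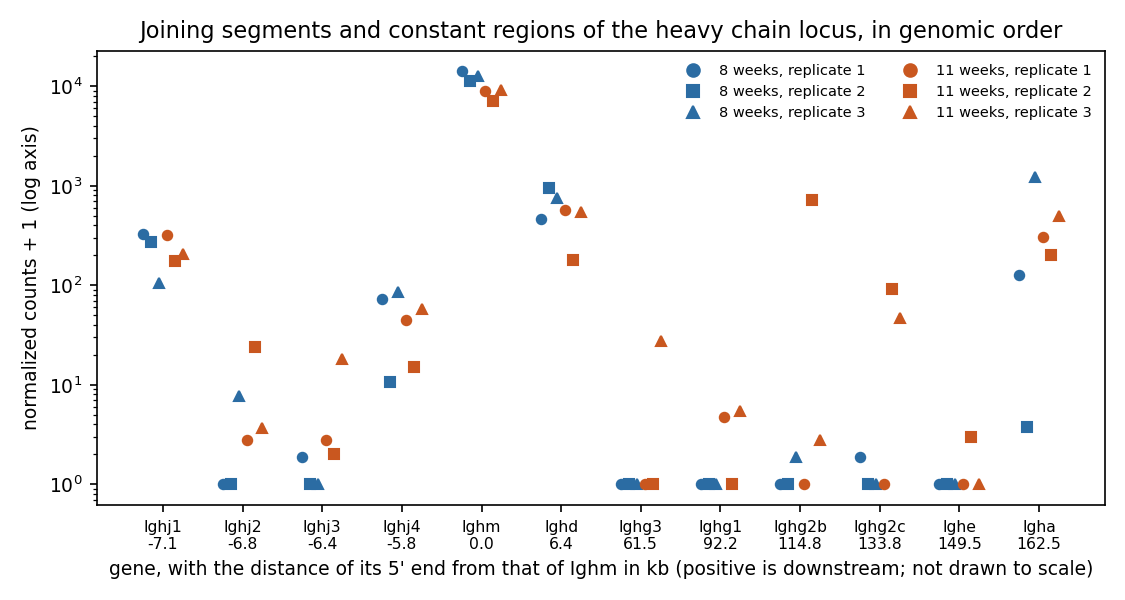
Normalized counts plus 1, on a log axis, of the J segments and constant regions of the heavy chain locus in genomic order, with the distance of each from the 5' end of Ighm in kilobases under its name; 1 point a library. Ighm stands above all other genes in every library, and Ighd, Ighj1, Ighj4 and Igha are the other genes detected in all 6.

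Kappa light chain reads were dominated by 1 segment in several libraries, and by a different one in each. Of 105 kappa V segments 20 had a read in any library, with sums of 254.1, 170.4 and 537.2 normalized counts in the 8-week samples and 205, 292.4 and 192.1 at 11 weeks. In 8-week replicate 1, Igkv1-110 held 100% of the kappa V reads (95% Wilson interval 98.7% to 100%). In 8-week replicate 2, Igkv3-5 held 87.8% (80.9% to 92.5%), and in 8-week replicate 3, Igkv2-109 held 58.8% (54.9% to 62.6%). At 11 weeks, Igkv1-117 held 96.4% (93.1% to 98.2%) in replicate 1, Igkv12-46 held 88.3% (84.1% to 91.5%) in replicate 2 and Igkv12-44 held 42.0% (35.5% to 48.7%) in replicate 3. The leading segment was thus not the same in any pair of libraries. As for the heavy chain, the assignment of reads to single V segments is uncertain, and the intervals do not cover this. Igkv1-110, the kappa V segment with the highest mean, measured 254.1, 0 and 211.8 at 8 weeks and 0.9, 31.3 and 0.9 at 11 weeks. Igkc was 1.58 to 4.36 times the kappa V sum, and Ighm was 46.2 to 8020 times the heavy V sum, both in normalized counts. The ranges are not comparable as they stand, since no length correction was made. Ighm has 1886 exonic bases and Igkc 323. The value of 8020 rests on 1 heavy V read, in 8-week replicate 2.

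Of the constant regions of switched heavy chains, Igha was detected in all 6 libraries and the others mainly in 1 or 2. Igha, the constant region of IgA, measured 125.7, 2.8 and 1223.9 at 8 weeks and 305.3, 199.6 and 492.1 at 11 weeks. Ighg2b measured 720.8 in 11-week replicate 2 and at most 1.8 elsewhere. Ighg2c measured 91.7 and 46.2 in 11-week replicates 2 and 3 and at most 0.9 elsewhere. Ighg3 (26.3) and the lambda constant region Iglc2 (39) were seen in 11-week replicate 3 alone, Ighg1 was at most 4.5 and Ighe at most 2. Of 12 constant region genes listed, 10 were in the table and 9 were tested. limma and edgeR called 0 of them, and DESeq2 called 0 of the 5 to which it gave an adjusted p. At an unadjusted p under 0.05, 1 was higher and 1 lower, beside 8.03% of all genes tested in either direction. Their median difference was 1.59, or 1.69 with the 3 genes at 0 in all libraries of an age set to their bound. The direction of this median was not stable: it was -0.60 among genes with a mean of at least 100, 0.62 and 2.68 with pseudocounts of 10 and 0.1, 4.55 with edgeR and 3.87 with DESeq2.

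The list of 35 genes of B cell surface and identity had 32 members tested, with 0 called by limma or edgeR. DESeq2 called 0 of the 29 to which it gave an adjusted p. At an unadjusted p under 0.05, 1 was higher and 3 lower, beside 8.03% of all genes tested in either direction. Its median difference was -0.06. Its most abundant members are genes that myeloid cells also express: Cd83, a surface protein of activated antigen-presenting cells, Blnk, the adaptor that links SYK to its targets, Cd38, an ectoenzyme, and Cd37, a tetraspanin. Blnk measured 7989.9, 10972.2 and 7853.4 at 8 weeks and 6374.8, 5094.9 and 7455.6 at 11 weeks, with no overlap. Of all genes tested, 5.12% were lower with no overlap. Cd38 measured 1628.1, 2529.7 and 1561.3 at 8 weeks and 4144.1, 4709.8 and 2193.4 at 11 weeks, with 11-week replicate 3 inside the 8-week range. The differences were -0.50 ± 0.21 for Blnk, 0.91 ± 0.31 for Cd38, -0.18 ± 0.18 for Cd83 and -0.06 ± 0.27 for Cd37 (SE, log2). Vpreb3 was at 0 in all libraries, and Blk, a SRC-family kinase of B cells, and Ly6d were at most 0.9.

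Below the receptor, the signalling chain was well detected. All 18 genes of the B cell receptor signalling list were tested, and limma, edgeR and DESeq2 called 0. At an unadjusted p under 0.05, 1 was higher and 1 lower, beside 8.03% of all genes tested in either direction. The median difference was -0.15. Syk, the kinase that binds the phosphorylated tails of CD79A and CD79B and also acts downstream of Fc receptors, measured 12523.9, 11774.3 and 12070.1 at 8 weeks. At 11 weeks Syk measured 10337.7, 7941.7 and 10177.4, all below the 8-week values, with a difference of -0.36 ± 0.18 (SE, log2). Such an order was seen in 5.12% of all genes tested. Lyn, a SRC-family kinase shared by B cells and myeloid cells, differed by 0.16 ± 0.16, and Cd81, a tetraspanin of the B cell co-receptor, by 0.05 ± 0.14, both with overlap. Thus in the 3 libraries with Cd79a at 0, Syk was at 7941.7 or above and Blnk at 5094.9 or above.

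**Figure D5:**
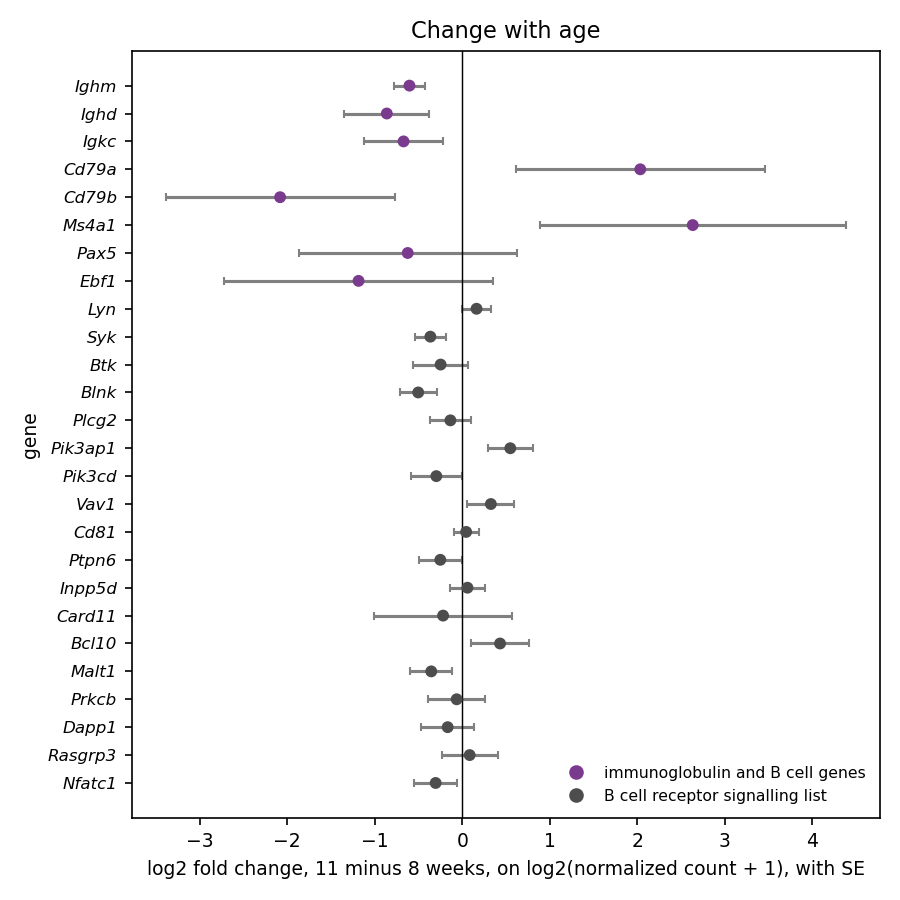
Log2 fold change, 11 minus 8 weeks, with its SE for the 8 immunoglobulin and B cell genes (purple) and the 18 genes of receptor signalling (grey), from the limma fit on log2(normalized count + 1). Ighm lies at -0.60 ± 0.18, and the scarce genes Cd79a, Cd79b, Ms4a1, Pax5 and Ebf1 have SEs of 1.24 to 1.75.

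Plasma cell genes had 11 of 12 members tested, 0 called by any of the 3 tools, 0 at an unadjusted p under 0.05 and a median difference of -0.03. The most abundant were Xbp1, Irf4, Prdm1 and Slamf7, which macrophages also express, with differences of 0.00 ± 0.22, -0.19 ± 0.24, -0.03 ± 0.28 and 0.07 ± 0.32 (SE, log2). Of 8 genes of B cell precursors 5 were tested, with 0 called by limma or edgeR, 0 by DESeq2 of the 3 to which it gave an adjusted p, 0 at an unadjusted p under 0.05 and a median of -0.03, or -0.14 with the 2 genes at 0 in all libraries of an age at their bound. Rag2, Igll1 and Vpreb2 were at 0 in all libraries. Rag1, which with RAG2 cuts the V, D and J segments, had reads in 11-week replicate 3 alone (6.3), and Dntt, which adds bases at the joints, in 11-week replicate 2 alone (7.1). Vpreb1, a surrogate light chain gene, reached 85.9 in 8-week replicate 2 and was at most 6.3 elsewhere. Cd93 and Il7r, the most abundant genes of that list, differed by -0.03 ± 0.19 and -0.14 ± 0.23.

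Proteins that bind or carry IgM were also examined, since IgM can reach a macrophage from outside, though protein taken up adds no reads. Fcamr, a receptor for IgA and IgM, was at 0 in all libraries, and Faim3, the IgM Fc receptor, was at most 10. Cd5l, a macrophage protein that travels with pentameric IgM, measured 726.7, 1864.7 and 826.8 at 8 weeks and 2733.6, 1686.5 and 648 at 11 weeks. The difference of Cd5l was 0.47 ± 0.47 (SE, log2), with overlap. Cr1l, a complement regulator, differed by -0.33 ± 0.25, Pigr, the transporter of polymeric immunoglobulin, by 1.53 ± 0.92, and Cr2, the complement receptor of B cells, by 2.72 ± 1.86. Of this list 5 of 6 genes were tested. limma and edgeR called 0, DESeq2 called 0 of the 4 to which it gave an adjusted p, and 0 had an unadjusted p under 0.05. The median was 0.47, but 1.05 without 11-week replicate 3, 1.06 with edgeR and 1.16 with DESeq2.

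Summed markers of 2 other cell types differed between the ages without overlap. Among the 21675 single genes tested, 1475 were higher and 1109 lower at 11 weeks with no overlap. The sum of 4 markers of plasmacytoid dendritic cells (Siglech, Ccr9, Klk1 and Cox6a2) was 403.9 to 601.3 at 8 weeks and 202.3 to 361.7 at 11 weeks, lower at the later age as Ighm was. Most of this sum was Siglech, and Ccr9, also in the sum, went the other way, at 20.5, 103.9 and 108.5 against 76.3, 183.5 and 86.1 (0.78 ± 0.88). Bst2, of the longer list, overlapped between the ages (-0.47 ± 0.79). Klk1 was at 0 in 5 libraries and Cox6a2 in 3. Siglech, a receptor also found on some macrophages, measured 302.3, 478 and 307.5 at 8 weeks and 126, 102.8 and 252 at 11 weeks, a difference of -1.25 ± 0.55 (SE, log2). The part of these cells in the level of Ighm was not tested. Of the 9 genes listed for them 8 were tested, with 0 called by limma or edgeR and 0 by DESeq2 of the 7 to which it gave an adjusted p. At an unadjusted p under 0.05, 1 was lower, beside 8.03% of all genes tested in either direction. The median was -0.33, and 0.10 without 11-week replicate 3. Tcf4, Irf8 and Runx2, the other abundant ones, differed by -0.18 ± 0.19, -0.04 ± 0.27 and -0.87 ± 0.64.

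The sum of 5 T cell markers (Cd3e, Cd3d, Cd3g, Lck and Trac) was 97.3 to 266 at 8 weeks and 273.1 to 680.5 at 11 weeks, the opposite order to Ighm, with 266 and 273.1 as the nearest values. All 12 T cell genes listed were tested, with 0 called by limma or edgeR and 0 by DESeq2 of the 11 to which it gave an adjusted p. At an unadjusted p under 0.05, 3 were higher and 1 lower, beside 8.03% of all genes tested in either direction. The median was 2.09, or 1.79 with the 1 gene at 0 in all libraries of an age at its bound. Cd3e, a chain of the T cell receptor complex, measured 16, 117.8 and 5.1 at 8 weeks and 170.1, 345.8 and 177.6 at 11 weeks. Cd3g, another chain of that complex, had the opposite tendency, at 85.6, 33.2 and 63.2 against 2.8, 53.4 and 9.1 (-2.17 ± 1.24). Cd4, Cd2 and Tcf7 differed by -0.46 ± 0.26, -0.96 ± 0.45 and 2.67 ± 1.44 (SE, log2). Of 14 macrophage genes limma and edgeR called 0 and DESeq2 called 1, beside 2.73% of all genes with an adjusted p in DESeq2. At an unadjusted p under 0.05, 2 were higher and 1 lower, beside 8.03% of all genes tested in either direction. Their median was 0.03. The gene called by DESeq2 was Cd14, one of the sort antigens, at 22844.6, 23109.5 and 19463.2 against 30445, 32594.4 and 38151, a difference of 0.63 ± 0.15 (SE, log2, limma). Whether this bears on the level of Ighm was not tested. Lyz2, Csf1r, C1qb and C1qc differed by 0.02 ± 0.13, -0.27 ± 0.12, 0.25 ± 0.13 and 0.00 ± 0.15.

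The genes with a profile most like that of Ighm were found by Pearson correlation of log2(normalized count + 1) over the 6 libraries, among 9833 genes with a mean of at least 100. The 5 highest were Sh3bgrl3 (0.996), Cd200r4 (0.993), Orc1 (0.990), Lrp6 (0.988) and Mmp9 (0.984), given as a description of 6 points that share 2 ages and a common scaling. Cd200r4 belongs to the CD200 receptor family of myeloid cells, and Mmp9 encodes a secreted matrix protease of macrophages and neutrophils. Mmp9 measured 1281.3, 968.4 and 1111.2 at 8 weeks and 570.1, 482.9 and 678.9 at 11 weeks. All 5 had every 11-week library below every 8-week library, as Ighm had. This follows from their selection by likeness to Ighm in these same libraries and is no further result. The other members correlated with Ighm at 0.704 for Cd79b, 0.643 for Ighd, 0.478 for Pax5, 0.378 for Igkc, 0.326 for Ebf1, -0.031 for Ms4a1 and -0.183 for Cd79a.

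For Cd79a the same search gave Ern1 (0.986), Ppm1m (0.984), Atp5d (0.981), Per2 (0.978) and Araf (0.978), all highest in 11-week replicate 3. Ern1 encodes IRE1, a sensor of unfolded protein, and Per2 is a clock gene. Ern1 measured 3138.6, 2935.6 and 2663.9 at 8 weeks and 3518.9, 2758.1 and 4593.4 at 11 weeks. Among the members, Ms4a1 had the profile most like that of Cd79a, at 0.824. With 3 of 6 values of Cd79a at 0, these figures rest mainly on 1 library.

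RefSeq promoters (300 bases, GRCm38.p6) were found for Cd79a, Pax5 and Ebf1, 3 of the 8 members. These motifs were searched on both strands: the EBF1 core TCCCNNGGG, the octamer ATGCAAAT, a PU.1 site GAGGAAGT and the E box CAGGTG. They occur in 6.56%, 1.74%, 3.2% and 20.21% of the 32851 promoters in the table. The E box was found in Cd79a, 154 bases before its RefSeq start, as printed above, and no other match was found among the members. Only exact matches to these strings were counted, so sites that differ from them by a base are missed. No PAX5 motif was searched. Nothing is therefore read from the lack of other matches.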

How the data were processed

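The 6 libraries were made from small amounts of macrophage RNA, per the labels' protocols. STAR 2.4, DESeq2 1.6 and GRCm38 appear in the submitters' processing notes without roles. The way reads were counted, and any use of strand, is not stated in the labels or notes. The authors deposited 1 signal value per gene and library, which the values show to be counts divided by a size factor and written to 1 decimal. The deposited table also holds the authors' log2 fold change, fold ratio and p-value for 11 against 8 weeks. Whole reads were recovered within 0.05 normalized counts for at least 99.8% of nonzero values.

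Because values were normalized, limma 3.58.1 (trend, robust) was fitted to log2(value + 1) with age as the term, over genes with a mean of at least 1 in either age, with Benjamini-Hochberg adjustment at 0.05. The added 1 understates the change of scarce genes. edgeR 4.0.16 and DESeq2 1.42.0 were run on the recovered reads as alternatives. A filter, pseudocounts of 0.1 and 10, scaling, a replicate block and leaving out each library were also tried. Exonic lengths are from GENCODE M21, where 42462 of the 43432 genes were found by ID, limited to the span given in the deposited table (for Igkc the longer annotated length was an added alternative). No pair of libraries held identical values. Replicate numbers did not pair the samples (correlations of -0.03, 0 and -0.025 over 16775 genes). The limma and edgeR fits were also run on simulated counts, with larger changes than that of Ighm placed in well-detected genes. Changes as small as that of Ighm, or changes of scarce genes such as Cd79a and Pax5, were not simulated.

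The members and gene lists were chosen with earlier results of these data known. Named genes are all members, the 4 most abundant genes of each list, the 5 most abundant V segments per chain and the 5 genes most like Ighm and Cd79a. Other genes named, such as those at or near 0, were chosen after their values were seen. One gene of the B cell marker list is not reported here and was left out of its sums.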

Additional observations from a re-analysis of the deposited data

How the results depend on the processing

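The difference of Ighm between the ages kept its sign under all 15 alternatives, from -0.69 to -0.49 (log2). The signs of Ighd, Igkc, Cd79b and Ms4a1 were also kept under all 15, and that of Cd79a under the 14 that could be computed. On leaving out 1 library the values ran from -1.16 to -0.32 for Ighd, -1.11 to -0.24 for Igkc, 0.62 to 3.30 for Cd79a, -3.33 to -0.96 for Cd79b and 1.27 to 4.51 for Ms4a1. Pax5 kept its sign under 13 alternatives and fell below the filter without 8-week replicate 1, where the difference of means, added after seeing the data, was 0.63. The sign of Ebf1 reversed with edgeR (0.996), with DESeq2 (1.01) and without 11-week replicate 1 (0.22; range on leaving out 1 library -3.06 to 0.22). The log2 ratio of Ighm to the 5 summed genes differed by -1.50 to 0.99 on leaving out 1 library. Over all genes limma called 11 (8 higher, 3 lower), against 4 (4 higher, 0 lower) scaled to totals, 5 with a pseudocount of 10, 14 with edgeR (13 higher, 1 lower), 422 with DESeq2 (266 higher, 156 lower) and 3 to 16 on leaving out 1 library. The low values were 3 without 8-week replicate 1 and 4 without 11-week replicate 1. With a replicate block 45 were called, though the numbers did not pair the samples, and no member was called with the block. Scaling to totals shifted the median of all genes by -0.088 and TMM by -0.012. Alternatives for list medians were added after seeing the data. The constant region median was -0.60 with a mean of at least 100, 2.68 and 0.62 with pseudocounts of 0.1 and 10, 4.55 with edgeR and 3.87 with DESeq2, and the T cell median was 1.10 with a pseudocount of 10. Leaving out 1 library gave medians of -0.203 to -0.0198 for receptor signalling, -0.14 to 0.24 for plasma cells, -0.20 to 0.49 for B cell precursors and -0.65 to 0.10 for plasmacytoid dendritic cells and 0.31 to 1.05 for IgM receptors and carriers (1.06 with edgeR and 1.16 with DESeq2). The cause of these changes was not tested. Cd79a and Pax5, at 0 to 44 reads, are at the limit that depth allows.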
